A study of Mus musculus with 12 samples.

Results

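The genes described here encode the cytosolic aminoacyl-tRNA synthetases together with the enzymes, transporters and regulators of the amino acid response that the transcription factor ATF4 drives. They were chosen by name as 41 genes in 4 groups: 20 cytosolic synthetases, 8 enzymes of amino acid synthesis and folate metabolism, 6 amino acid transporters, and 7 transcription factors and stress regulators. Of these, 39 had a probe set that the array annotation named with that symbol alone, among 18193 genes so named and 45101 probe sets in all. Dars and Pycr1 had none. A further gene, the cystine transporter Slc7a11, stayed below the signal minimum of a mean of 50 in at least 1 zone, with signals between 2.68 and 19.97 over the 12 arrays, which left 38 genes in the tests. Where a gene had several probe sets, as 25 of the 41 did (84 probe sets in all), the one with the highest mean log2 signal stood for the gene.

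Tibiae of CD1 mouse embryos at embryonic day 15.5 were cut by hand into 3 zones, without treatment. By the study's anatomy zone I held resting and proliferating chondrocytes, zone II mostly prehypertrophic and hypertrophic chondrocytes, and zone III the most mature hypertrophic chondrocytes together with the mineralized part of the bone. Segments were pooled within a litter, so that an array reports a pool of embryos and not an animal, and 4 arrays per zone, lettered A to D, were hybridized. The question addressed was how transcript levels change along the growth plate.

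Aminoacyl-tRNA synthetases attach each amino acid to its tRNA and so supply the ribosome. When uncharged tRNA accumulates or unfolded protein builds up in the endoplasmic reticulum, kinases phosphorylate the initiation factor eIF2, most translation slows, and the mRNA of ATF4 is translated more. ATF4 then raises transcription of synthetases, of enzymes that make asparagine, serine and proline, and of amino acid transporters. In cartilage, chondrocytes secrete large amounts of collagen and proteoglycan, and ATF4 is known for its roles in chondrocytes and osteoblasts. Since ATF4 is controlled mainly at translation, its transcript level does not report its protein level.

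Each array had been scaled before deposition to a mean signal of 150 after trimming 2% at each end, and a signal has no absolute unit. Levels of different probe sets are therefore not comparable, and every difference below is between zones for the same probe set, on the log2 scale, with the later zone over the earlier one. The hypertrophic markers followed the anatomy. The 4 markers of prehypertrophic and hypertrophic chondrocytes summed to 439 to 625 in zone I, 9720.4 to 11190.5 in zone II and 5596 to 6896 in zone III. Col10a1 was under 50 in zone I. Markers of other cells were high in zone III. Its 6 osteoclast markers summed to 11281 to 13519, against 618 to 729 in zone I and 600.2 to 1559.8 in zone II, its 7 endothelial markers to 2200.3 to 2461 against 519 to 993 and 192 to 420.0, and its 6 macrophage markers to 3368 to 4068 against 1089 to 1897 and 532 to 819. Its 7 osteoblast markers summed to 11857 to 13088, against 1207 to 1785 and 4129 to 6439. The osteoblast sum in zone II was mostly Ibsp, with a mean of 3362 against 54.3 in zone I. Of the 7, 5 were called higher in zone II than in zone I and 0 lower. Col1a1 had a mean of 828 in zone II against 1155 in zone I. The macrophage sum in zone III was mostly Csf1r, with a mean of 2749 against 577 in zone I, and of the 5 macrophage markers tested 2 were higher and 1, Mrc1, was lower in zone III than in zone I, although 5 were higher than in zone II. The 9 early chondrocyte markers summed to 20215 to 25125 in zone I and 28407 to 30919 in zone II, and fell to 8719 to 11140.5 in zone III. Their sum was thus highest in zone II and not in zone I, although only 2 of the 9 were called higher in zone II than in zone I. Zone II in turn had the lowest perichondrial and fibrous markers, 758 to 1584 for 4 genes against 4289.9 to 6235 in zone I. The 3′ to 5′ signal ratio of the Gapdh control was 1.98 to 2.28 in zone III, above 1.25 to 1.76 in the other zones, while that of actin was lower there, at 1.70 to 2.02 against 2.09 to 3.23. The array files give 3 hybridization times, each shared by 4 arrays that cover all zones.

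Transcripts of 10 synthetases, 4 synthesis enzymes, 1 transporter and 3 regulators rose from zone I to zone II, the prehypertrophic and hypertrophic segment. Those of 9 synthetases, 6 enzymes, 2 transporters and 1 regulator fell from zone II to zone III, while Wars, Slc3a2, Slc7a5, Cebpb and Sesn2 rose there. Of the 38 genes tested, 3 reached the signal minimum in 1 zone alone, namely Cebpb, Sesn2 and Trib3. For each of them this was zone III, so it had to be highest there to be tested at all. From zone I to zone II, 18 of the 38 genes tested rose and 0 fell at an adjusted p under 0.05 (limma), where 15.1% of all 22255 probe sets rose and 22.2% fell. At an unadjusted p under 0.05 the counts were 21 and 0. Their median log2 difference was 0.40, against −0.07 over all probe sets. From zone II to zone III, 18 of the 38 fell and 5 rose, where 20.9% of all probe sets fell and 28.5% rose, and the median was −0.36 against 0.09. Between zones III and I, 11 were higher in zone III and 3 lower, against 21.0% and 19.0% of all probe sets, and the median of 0.06 was close to that of all probe sets, 0.01. The 3 comparisons share arrays and are not independent of each other. Every one of these called genes kept its sign at each of the 3 hybridization times. Where the arrays of the zones did not overlap, this had to be so. For the rest the same arrays gave the call, so it is no independent replication. The arrays of the zones compared did not overlap for 15 genes that were higher in zone II than in zone I (13.8% of all probe sets), for 17 that were lower in zone III than in zone II (20.5%) and for 4 that were higher there (27.3%). For zone III against zone I they did not overlap for 10 higher genes (21.8%) and 3 lower ones (19.9%). The endothelial and perichondrial markers fell from zone I to zone II as these genes rose, and their part in the rise was not tested. In such pooled tissue, fewer cells of a type and less RNA per cell cannot be told apart.

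**Figure D1:**
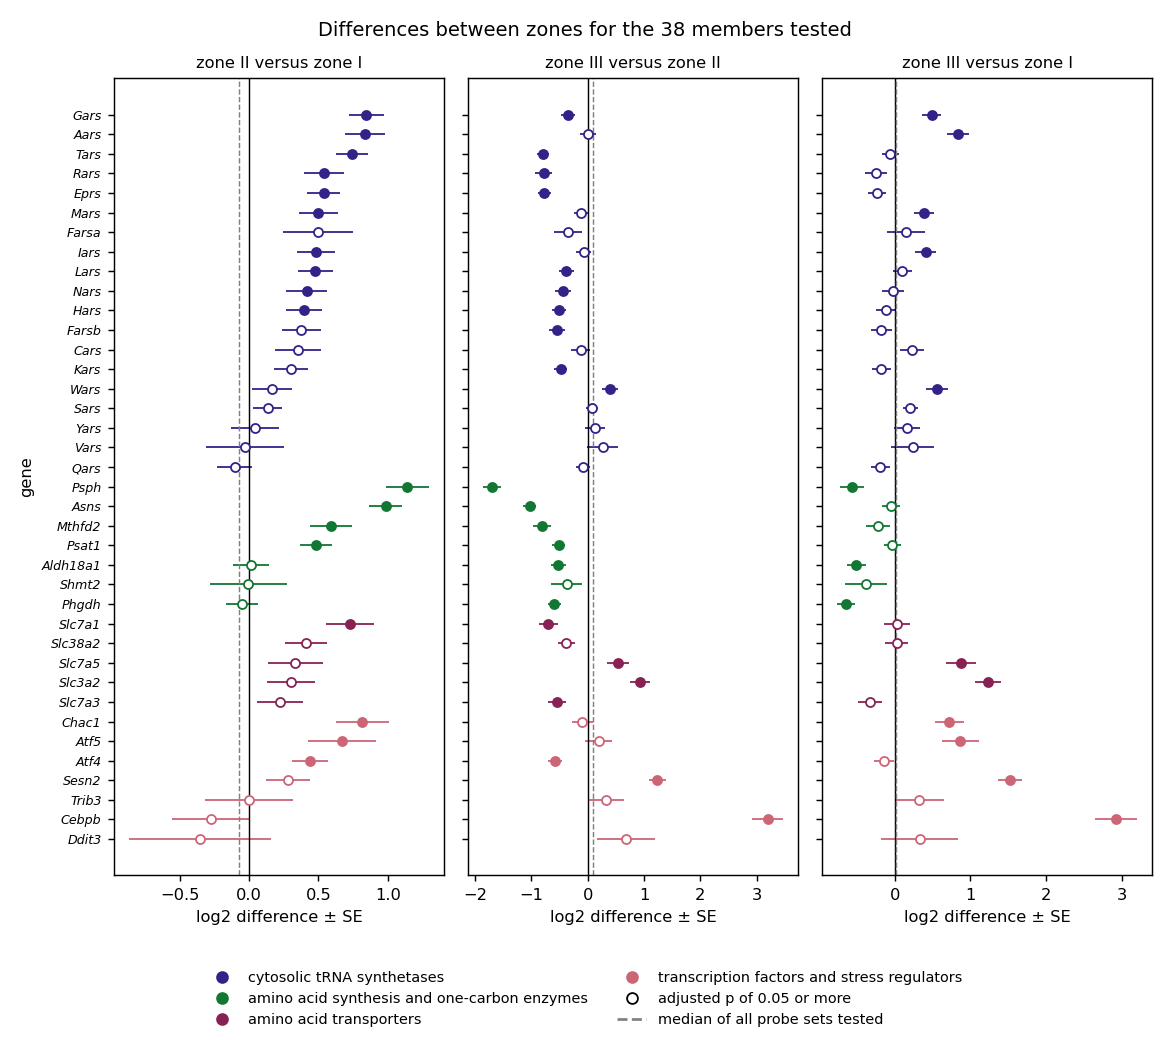
Log2 differences with their SE for the 38 genes tested, in the 3 comparisons, coloured by group. Filled circles passed an adjusted p under 0.05 and the dashed line is the median of all probe sets (−0.07, 0.09 and 0.01). Most synthetases and enzymes lie to the right in zone II over zone I and to the left in zone III over zone II. Cebpb at 3.19 stands farthest to the right. With arrays centred on ribosomal protein genes, the zone III over zone II median became 0.16 for synthetases and −0.08 for enzymes. For all 38 genes it was then 0.14.

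These counts have to be read beside signal level and scaling. Over all probe sets the zone II excess grew with signal: among the 1165 with a mean signal of 1600 or more, 46.0% were higher in zone II than in zone I and 2.83% lower, with a median of 0.31, whereas among the 8592 under 100 only 8.07% were higher and the median was −0.15. In zone III against zone II the same bright range had 71.4% lower. Of the genes described here, 12 lay between 800 and 1600. In that range 7 of the 12 were higher in zone II than in zone I, against 28.9% of all probe sets, with medians of 0.41 and 0.12, and 10 of the 12 were lower in zone III than in zone II, against 41.7%, with medians of −0.54 and −0.21. In the brightest range 3 of 4 were higher in zone II, at a median of 0.46 against 0.31, and 3 of 4 were lower in zone III, at −0.45 against −0.46, which is the level of the other bright probe sets. The 44 ribosomal protein genes tested moved the same way as the synthetases, with 18 higher in zone II than in zone I and 36 lower in zone III than in zone II, at medians of 0.32 and −0.47. When each array was centred on those genes, which shifted the median of all probe sets to −0.39 and 0.60, the counts of higher genes in zone II and of lower genes in zone III fell to 6 and 2. Relative to the median of all probe sets, the genes described here stood at 0.47 and −0.46. That centring shifts all probe sets of an array alike, so it could not change these 2 values. After quantile normalization, which can change them, they were 0.30 and −0.17.

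**Figure D2:**
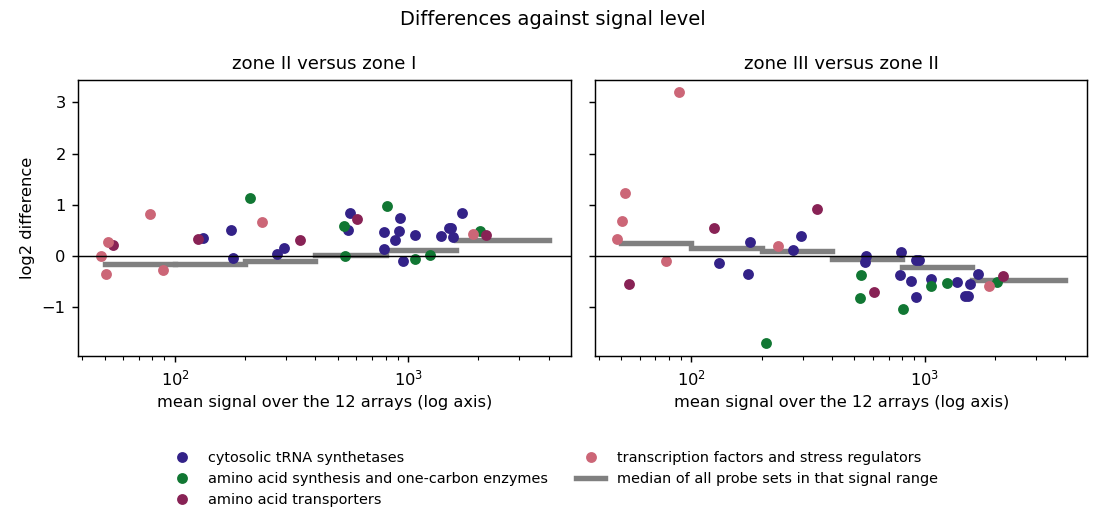
Log2 difference of each gene (1 point per gene, coloured by group) against its mean signal over the 12 arrays on a log axis, for zone II over zone I and zone III over zone II. Grey bars give the median of all probe sets in each signal range, which climbs from −0.15 to 0.31 on the left and drops from 0.25 to −0.46 on the right. Many synthetases and enzymes lie beyond the grey bar of their own range, and Psph, Cebpb and Sesn2 lie far from it.

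ATF4 binds DNA with C/EBP family partners at an element whose core reads TGATGNAA, or TTNCATCA on the other strand. Promoter windows from RefSeq (build GRCm38.p6, 250 bases before to 50 after a transcription start) were at hand for 32 of the 41 genes and were searched on both strands. The core was present in 10 of the 32 (31.2%), against 1219 of 27025 genes with a window (4.51%). The genes were listed as part of the ATF4 response, so a share above that of all genes can follow from the choice. It is therefore no separate support for ATF4 acting in these zones. By group it lay in 5 of 13 synthetases, 2 of 8 enzymes, 1 of 4 transporters and 2 of 7 regulators. The genes were Aars, with 2 copies, Gars, Iars, Tars, Yars, Asns, Pycr1, Slc7a11, with 2 copies, Trib3 and Chac1. Among the genes with a zone II rise, 6 of the 14 with a window held the core, and among those that did not pass that test 2 of 15 did. A match of letters describes the window and is no evidence of binding in these cells. The stretches before the start are shown for 5 genes whose transcripts differed between zones II and I in the tests that follow, with the core in capitals, each 5′ to 3′ on the strand of its gene.

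Aars, chr8:111033694-111033773, plus strand: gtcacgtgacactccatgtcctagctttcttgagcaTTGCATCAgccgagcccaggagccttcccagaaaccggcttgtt
Gars, chr6:55037935-55038000, plus strand: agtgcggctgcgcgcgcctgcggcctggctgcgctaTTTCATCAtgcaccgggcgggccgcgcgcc
Tars, chr15:11399659-11399709, minus strand: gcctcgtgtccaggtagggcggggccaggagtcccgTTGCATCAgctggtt
Asns, chr6:7693210-7693268, minus strand: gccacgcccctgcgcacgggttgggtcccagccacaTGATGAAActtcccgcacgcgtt
Chac1, chr2:119351013-119351092, plus strand: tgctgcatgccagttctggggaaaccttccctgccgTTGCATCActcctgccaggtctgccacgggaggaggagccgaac

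In these stretches the core began 112 bases before the start in Aars, 30 before it in Gars, 15 before it in Tars, 23 before it in Asns and 193 before it in Chac1. Asns alone among them carried it as TGATGAAA on its own strand, and in the other 4 it was read on the opposite strand. Cars, Hars, Lars, Nars, Rars, Vars, Wars, Slc7a3 and Slc7a5 had no window.

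Among the 19 cytosolic synthetases tested, 10 were higher in zone II than in zone I, 0 were lower and 9 did not pass. Of all probe sets 15.1% were higher and 22.2% lower. The synthetase median was 0.42, with 17 of 19 differences above 0. Between zones II and III, 9 fell, 1 rose and 9 did not pass, where 20.9% of all probe sets fell and 28.5% rose. The synthetase median of −0.35 became 0.16 with ribosomal centring. Between zones I and III, 5 were higher in zone III and 0 lower, at a synthetase median of 0.15. Of all probe sets 21.0% were higher and 19.0% lower, so the count of 5 is near the share of all probe sets. At an unadjusted p under 0.05, 12 were higher and 0 lower in zone II than in zone I, and 0 were lower in zone III than in zone I. By the fold of their catalytic domain, 5 of 9 class II enzymes and 4 of 9 class I enzymes rose from zone I to zone II, and 6 of 9 and 2 of 9 fell from zone II to zone III. Of the 7 tested enzymes of the multisynthetase complex, a particle in which several synthetases travel together, 5 rose into zone II and 4 fell into zone III. Those outside it numbered 12, of which 5 rose and 5 fell. Of all probe sets 15.1% rose into zone II and 20.9% fell into zone III, and no difference between these classes was tested.

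Gars, which charges glycine, the commonest residue of collagen, had the largest zone II rise of the group. Gars signals on arrays A to D were 1254, 1424, 1139 and 1181 in zone I, 2582, 2264, 1994 and 2138 in zone II and 2016, 1831, 1548 and 1629.8 in zone III. All zone II and zone III arrays lay above all zone I arrays, and zones II and III overlapped. The log2 difference was 0.84 ± 0.13 (SE, adjusted p = 0.00025) for zone II over zone I, a 1.80-fold rise, and 0.49 ± 0.13 (SE, adjusted p = 0.00805) for zone III over zone I. The fall from zone II to zone III, −0.36 ± 0.13 (SE, adjusted p = 0.0334), lost its call without zone II array A or B or zone III array C or D (adjusted p between 0.0626 and 0.102) and was close to 0 after quantile normalization (adjusted p = 0.979). Aars, the alanine enzyme, was higher than in zone I in both later zones. Aars signals on arrays A to D were 347, 454, 450.4 and 303 in zone I, 635, 666, 719 and 712 in zone II and 713, 739, 684 and 598 in zone III. Zone I was below both other zones with no overlap, and zones II and III covered the same range. It rose by 0.83 ± 0.14 (SE, adjusted p = 0.00065) into zone II, or 1.78-fold, and differed by −0.0014 ± 0.14 (SE, adjusted p = 0.994) between zones II and III. A second probe set of Aars gave 0.77 and 0.15 for these differences.

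Tars, which charges threonine, rose into zone II and fell into zone III. Tars signals on arrays A to D were 805, 687, 806 and 857 in zone I, 1247, 1421, 1340.3 and 1249 in zone II and 803, 802, 789 and 644 in zone III. Every zone II array was above every array of the other zones, which overlapped. Its differences were 0.74 ± 0.11 (SE, adjusted p = 0.00032) into zone II and −0.79 ± 0.11 (SE, adjusted p = 9.7e-05) into zone III. Eprs, a single protein that charges both glutamate and proline, followed the same order. Eprs signals on arrays A to D were 1200.0, 1352, 1567 and 1643 in zone I, 1850.3, 2095, 2291 and 2089.7 in zone II and 1198, 1243, 1214 and 1208 in zone III. Zone II did not overlap with the others, and the zone III arrays lay within 1198 to 1243 near the lowest zone I values. The rise was 0.54 ± 0.12 (SE, adjusted p = 0.00357) and the fall −0.77 ± 0.12 (SE, adjusted p = 0.00016). Rars, the arginine enzyme, varied more between zone II arrays. Rars signals on arrays A to D were 1639, 1233, 1415 and 1319.8 in zone I, 2157, 2566, 1845 and 1654 in zone II and 1276, 1186, 1199 and 1062 in zone III. The lowest zone II array lay just above the highest zone I array, and zone III was below zone II on every array. It rose by 0.54 ± 0.15 (SE, adjusted p = 0.0118) and fell by 0.78 ± 0.15 (SE, adjusted p = 0.00074). After quantile normalization the zone II rises of Eprs and Rars no longer passed (adjusted p = 0.0624 and 0.0597), nor did that of Eprs as the median of its probe sets (adjusted p = 0.11).

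Hars, which charges histidine, and Farsb, a subunit of the phenylalanine enzyme, were lower in zone III than in zone II with no overlap of arrays. Hars signals on arrays A to D were 1223, 1223, 1282 and 1453 in zone I, 1440.4, 1518, 2142 and 1792 in zone II and 1189, 1206, 1193 and 1185 in zone III. Zone II array A lay inside the range of zone I, and the rise of 0.40 ± 0.13 (SE, adjusted p = 0.0293) lost its call without zone I array A, B or C or zone II array C or D (adjusted p between 0.058 and 0.0794) and with hybridization time as a block (adjusted p = 0.0545). A second probe set of Hars gave a rise of 0.31 that did not pass (adjusted p = 0.0765). The fall into zone III was −0.51 ± 0.13 (SE, adjusted p = 0.00552). Farsb signals on arrays A to D were 1610.0, 1289, 1525 and 1544 in zone I, 1704, 2468, 1862 and 1779 in zone II and 1438, 1346, 1401 and 1112 in zone III. Its highest zone II array was B, and the zone I and zone III arrays overlapped. Farsb differed by 0.38 ± 0.14 (SE, adjusted p = 0.052) between zones II and I, which did not pass, although 2 of its 3 other probe sets did (0.45 and 0.95, adjusted p = 0.00776 and 0.000541), and by −0.55 ± 0.14 (SE, adjusted p = 0.00584) between zones III and II. After quantile normalization the zone III differences of Hars and Farsb no longer passed (adjusted p = 0.0896 and 0.103). Wars, the tryptophan enzyme, known as an interferon-induced gene, was the only cytosolic synthetase that rose from zone II to zone III. Wars signals on arrays A to D were 287, 274, 262 and 187 in zone I, 297, 300.1, 239 and 285 in zone II and 383, 403, 346 and 341 in zone III. All zone III arrays lay above all arrays of zones I and II, which overlapped. The difference from zone I was 0.56 ± 0.15 (SE, adjusted p = 0.00835). The difference from zone II, 0.39 ± 0.15 (SE, adjusted p = 0.0391), lost its call without zone II array C or D or zone III array A, B or C (adjusted p between 0.0548 and 0.108) and moved to 0.15 when arrays were centred on their median. The macrophage markers (3368 to 4068 in zone III against 532 to 819 in zone II), osteoclast markers (11281 to 13519 against 600.2 to 1559.8), endothelial markers (2200.3 to 2461 against 192 to 420.0) and osteoblast markers (11857 to 13088 against 4129 to 6439) moved with it, and their part in the result was not tested.

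**Figure D3:**
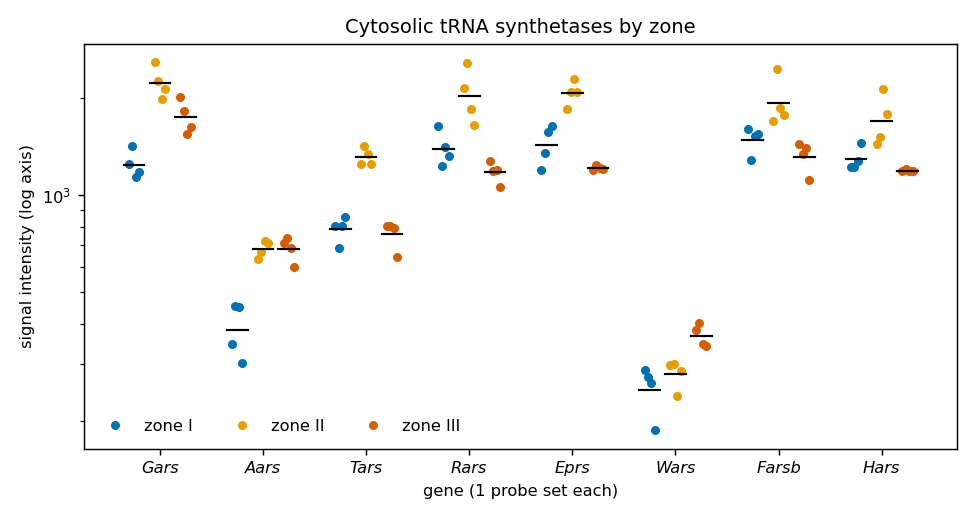
Signal intensity (log axis) of 8 cytosolic synthetases on each of the 12 arrays, 4 per zone, with a line at the mean log2 signal of each zone. Levels can be compared between zones within a gene and not between genes. The zone II arrays of Tars (1247 to 1421) and Eprs (1850.3 to 2291) stand above those of both other zones, Aars stays high in zone III, and Wars is highest in zone III.

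Other synthetases moved by less. Iars, Lars, Mars and Nars rose into zone II by 0.42 to 0.50 on the log2 scale, and Kars, Lars and Nars fell into zone III by 0.38 to 0.48. The rise of Iars was lost with no signal minimum (adjusted p = 0.0553) and with only the 8 arrays of the comparison (adjusted p = 0.0539). Its second probe set did not pass (0.32, adjusted p = 0.169). The falls of Lars and Nars were lost with no signal minimum (adjusted p = 0.0763 and 0.0713), after quantile normalization (adjusted p = 0.0783 and 0.132) and on leaving out any of 4 single arrays each (adjusted p between 0.0597 and 0.0764 without II-B, II-C, III-A or III-D for Lars, and between 0.0551 and 0.0734 without II-B, II-D, III-C or III-D for Nars). Iars and Mars were also higher in zone III than in zone I, by 0.41 and 0.39, and both calls were lost on leaving out single arrays (7 of the 12 for Iars, 6 for Mars, with adjusted p up to 0.085 and 0.116). With hybridization time as a block Iars no longer passed in that comparison (adjusted p = 0.0638). Nars lost its zone II call on leaving out any of 9 arrays (adjusted p up to 0.119) and with hybridization time as a block (adjusted p = 0.0677), although a second probe set gave a larger rise of 0.79 (adjusted p = 5.78e-05). Cars, Farsa, Qars, Sars, Vars and Yars passed in no comparison by the chosen probe set, with zone II differences between −0.10 (Qars) and 0.50 (Farsa, whose SE was 0.25). A dimmer probe set of Farsa was lower than in zone I in both later zones (−0.47 and −0.58, adjusted p = 0.0287 and 0.00883), and a second one of Sars was higher in zone II than in zone I (0.38, adjusted p = 0.0247).

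Psph and Asns gave the largest changes among the synthesis genes. Of 7 tested, 4 rose from zone I to zone II and 0 fell, beside 15.1% and 22.2% of all probe sets. From zone II to zone III 6 fell and 0 rose, beside 20.9% and 28.5%. Both 0 counts held also at an unadjusted p under 0.05. In zone III 3 were lower than in zone I, beside 19.0%. Psph, the phosphatase of the last step of serine synthesis, moved most. Psph signals on arrays A to D were 187, 149.9, 201 and 199 in zone I, 363, 475, 395 and 390.1 in zone II and 124, 121, 159.6 and 99.6 in zone III. The 3 zones were ordered II, I and III by their means of 406 ± 48.2, 184 ± 23.8 and 126 ± 24.9 (SD, n = 4), with zone II above every other array and zones I and III overlapping. Psph rose by 1.14 ± 0.16 (SE, adjusted p = 0.00013) into zone II, 2.20-fold, and fell by 1.70 ± 0.16 into zone III (SE, adjusted p = 2.4e-06), 3.25-fold. Asns makes asparagine from aspartate and glutamine and is a classic ATF4 target. Asns signals on arrays A to D were 634, 619.7, 707 and 646 in zone I, 1072, 1285, 1528 and 1306 in zone II and 625, 679.6, 645 and 576 in zone III. Every zone II array exceeded every other array, and zones I and III covered the same range. Its differences were 0.98 ± 0.12 (SE, adjusted p = 5e-05) and −1.03 ± 0.12 (SE, adjusted p = 1.6e-05), and zones III and I differed by −0.05 ± 0.12 (SE, adjusted p = 0.793). A second probe set gave 1.10 and −1.09.

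Psat1 and Phgdh, which catalyse the steps of serine synthesis before Psph, did not share its profile in full. Psat1 signals on arrays A to D were 1854, 1575, 1889 and 2070.1 in zone I, 2434, 2607, 2612 and 2611 in zone II and 1967, 1946, 1666 and 1635 in zone III. Zone II lay above both other zones without overlap, with 3 of its arrays between 2607 and 2612. The rise was 0.48 ± 0.11 (SE, adjusted p = 0.00546) and the fall −0.51 ± 0.11 (SE, adjusted p = 0.00238), and both calls were lost after quantile normalization (adjusted p = 0.173 and 0.348). Phgdh signals on arrays A to D were 1444, 1136, 1321 and 1126 in zone I, 1126, 1378, 1195 and 1148 in zone II and 783, 871, 801 and 757 in zone III. Zones I and II overlapped and zone III lay below both on every array. Phgdh differed by −0.05 ± 0.12 (SE, adjusted p = 0.777) between zones II and I and fell into zone III by 0.59 ± 0.12 (SE, adjusted p = 0.00109). Another 3 probe sets of Phgdh gave zone III differences between −0.84 and −0.81 (log2).

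Mthfd2 is a mitochondrial folate enzyme that carries serine carbon onward. Mthfd2 signals on arrays A to D were 419, 426, 626 and 501 in zone I, 652, 661, 887 and 752 in zone II and 418, 478, 406 and 373 in zone III. Zone II arrays A to D all lay above the zone I maximum of 626 and above all of zone III. It rose by 0.59 ± 0.15 (SE, adjusted p = 0.0095) and its zone III difference was −0.81 ± 0.15 (SE, adjusted p = 0.00081), with a second probe set at 0.86 and −1.12. Aldh18a1, which starts proline synthesis from glutamate, fell into zone III. Aldh18a1 signals on arrays A to D were 1374, 1614, 1315 and 1286 in zone I, 1442, 1117, 1468 and 1659 in zone II and 1023, 994, 955 and 950.4 in zone III. Zones I and II overlapped, and all zone III arrays were lower than all others. Its differences were 0.02 ± 0.13 (SE, adjusted p = 0.938) into zone II and −0.52 ± 0.13 (SE, adjusted p = 0.00502) into zone III. Of its 4 other probe sets, all dimmer, 1 was also lower in zone II than in zone I, at −0.74 (adjusted p = 0.0267). Shmt2, a mitochondrial serine hydroxymethyltransferase, passed in no comparison by the chosen probe set (−0.0049, −0.37 and −0.38, SE 0.28), while another was lower in zone III than in zone II (−0.73, adjusted p = 0.0266).

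**Figure D4:**
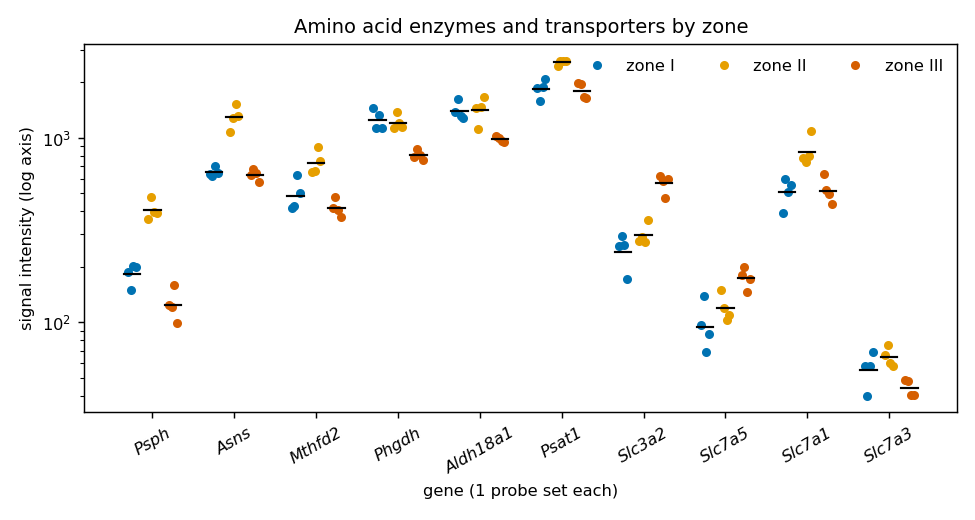
Signal intensity (log axis) of 6 enzymes and 4 transporters on each of the 12 arrays, 4 per zone, with a line at the mean log2 signal of each zone. Levels can be compared between zones within a gene and not between genes. Psph, Asns, Psat1 and Slc7a1 peak in zone II, Phgdh and Aldh18a1 drop in zone III, and Slc3a2 and Slc7a5 are highest in zone III.

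The transporters divided into a pair that was highest in zone III and a cationic carrier that was highest in zone II. Of 5 tested, 1 rose from zone I to zone II and 0 fell (0 also at an unadjusted p under 0.05), beside 15.1% and 22.2% of all probe sets. Another 2 rose and 2 fell from zone II to zone III, beside 28.5% and 20.9%, and 2 were higher in zone III than in zone I, beside 21.0%. Slc3a2 encodes the heavy chain that carries several light chains to the cell surface. Slc3a2 signals on arrays A to D were 258, 294, 262 and 171 in zone I, 277, 291, 272 and 359 in zone II and 621, 583, 472 and 599.7 in zone III. Zones I and II overlapped, and the lowest zone III array was above the highest of the others. It differed by 0.30 ± 0.17 (SE, adjusted p = 0.188) between zones II and I, and rose by 0.93 ± 0.17 (SE, adjusted p = 0.00067) into zone III, 1.90-fold. Slc7a5 encodes the light chain that with Slc3a2 imports leucine and other large neutral amino acids. Slc7a5 signals on arrays A to D were 96.4, 138, 69.4 and 86.7 in zone I, 149, 120.3, 103 and 109 in zone II and 182, 199.9, 146 and 173 in zone III. Zone III lay above all of zone I, and its lowest array lay just under the highest zone II array. The difference was 0.88 ± 0.20 (SE, adjusted p = 0.00357) for zone III over zone I. For zone III over zone II it was 0.54 ± 0.20 (SE, adjusted p = 0.0369), a call lost without zone II array B, C or D or zone III array A, B or D (adjusted p between 0.064 and 0.0966), and 0.29 after quantile normalization. The osteoclast markers (11281 to 13519 in zone III against 600.2 to 1559.8 in zone II) and osteoblast markers (11857 to 13088 against 4129 to 6439) moved with Slc3a2 and Slc7a5. So did the endothelial markers (2200.3 to 2461 against 192 to 420.0) and macrophage markers (3368 to 4068 against 532 to 819). The part of these cells in the results was not tested.

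Slc7a1, a carrier of arginine and lysine, peaked in zone II. Slc7a1 signals on arrays A to D were 392, 599, 511 and 553 in zone I, 780.0, 739, 799 and 1081 in zone II and 633, 521, 496 and 438 in zone III. Zone II exceeded every other array, and zones I and III overlapped. Its differences were 0.73 ± 0.17 (SE, adjusted p = 0.00512) and −0.70 ± 0.17 (SE, adjusted p = 0.00439). A dimmer second probe set gave 0.15 (adjusted p = 0.654) and −0.26 (adjusted p = 0.385), neither of which passed. Slc7a3, a related cationic carrier, was close to the signal minimum. Slc7a3 signals on arrays A to D were 58.2, 40.1, 58.1 and 69.4 in zone I, 66.6, 75.2, 60.2 and 57.7 in zone II and 48.9, 47.9, 40.2 and 40.5 in zone III. All zone III arrays were below all zone II arrays, at −0.55 ± 0.16 (SE, adjusted p = 0.0145), and zone I overlapped both. Slc38a2, a sodium-coupled carrier of small neutral amino acids, did not pass, with 0.41 ± 0.15 (SE, adjusted p = 0.0505) into zone II and −0.38 ± 0.15 (SE, adjusted p = 0.0535) into zone III.

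Transcripts of ATF4 itself were modestly highest in zone II, and the other regulators had different profiles. Of the 7 regulators, 3 rose from zone I to zone II and 0 fell (0 also at an unadjusted p under 0.05), beside 15.1% and 22.2% of all probe sets. From zone II to zone III 2 rose and 1 fell, beside 28.5% and 20.9%. In zone III 4 were higher and 0 lower than in zone I, beside 21.0% and 19.0%, again 0 at an unadjusted p under 0.05. Cebpb and Sesn2 are the 2 that rose into zone III and are among those 4. They reached the signal minimum in zone III alone, so they had to be highest there to be tested. Atf4 signals on arrays A to D were 1758, 1413, 1997 and 1985 in zone I, 2754, 2267, 2334 and 2275 in zone II and 1621, 1651, 1660.5 and 1490.0 in zone III. Zone II lay above all other arrays, with array A highest, and zones I and III overlapped. The rise was 0.44 ± 0.13 (SE, adjusted p = 0.0174) and the zone III difference −0.58 ± 0.13 (SE, adjusted p = 0.00229). Both calls were lost after quantile normalization (adjusted p = 0.285 and 0.172), and that of the rise also with no signal minimum (adjusted p = 0.0593). The second probe set of Atf4 gave a like rise of 0.54 (adjusted p = 0.00148) but a smaller zone III difference of −0.21 (adjusted p = 0.106), and between zones III and I the probe sets stood on opposite sides, at −0.14 and 0.32 (adjusted p = 0.409 and 0.0247). Whether Atf4 differed between zones I and III therefore depended on the probe set.

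Atf5, a related factor that shares translational control with ATF4, and Chac1, which degrades glutathione, were higher in both later zones. Atf5 signals on arrays A to D were 189.6, 213, 141 and 132 in zone I, 384, 296, 165 and 257 in zone II and 384, 261, 264 and 311 in zone III. Zone II array C fell within the zone I range, and zone III lay above all of zone I. Its zone III over zone I difference was 0.86 ± 0.25 (SE, adjusted p = 0.014), while the zone II rise of 0.67 ± 0.25 (SE, adjusted p = 0.049) sat at the threshold and was lost without any of 10 of the 12 arrays, all but I-B and II-C (adjusted p between 0.0511 and 0.133). Chac1 signals on arrays A to D were 63.0, 45.6, 66.4 and 46.4 in zone I, 109, 116, 70.1 and 95.6 in zone II and 82.5, 100.2, 74.9 and 106 in zone III. All arrays of zones II and III lay above those of zone I, and those 2 zones overlapped. Chac1 rose by 0.82 ± 0.19 (SE, adjusted p = 0.00515) into zone II, 1.76-fold, and zone III exceeded zone I by 0.72 ± 0.19 (SE, adjusted p = 0.00934).

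Cebpb and Sesn2 rose into zone III and did not pass between zones II and I (−0.27 and 0.28, adjusted p = 0.485 and 0.189). Cebpb encodes a C/EBP factor that can pair with ATF4 and is also prominent in macrophages and other cell types. Cebpb signals on arrays A to D were 52.4, 50.01, 57.9 and 35.2 in zone I, 68.7, 22.7, 36.6 and 43.8 in zone II and 416, 291, 385 and 377 in zone III. The lowest zone III array was far above the highest other array. Cebpb rose by 3.19 ± 0.28 (SE, adjusted p = 1.6e-06) from zone II, and by 2.92 ± 0.28 (SE, adjusted p = 4.8e-06) from zone I. It reached the signal minimum in zone III alone, so it had to be highest there to be tested. These sizes rest on mean signals under the minimum in zones I and II and are uncertain. Sesn2, a stress-induced sensor of leucine upstream of mTOR, was under 50 on every array of zones I and II. Sesn2 signals on arrays A to D were 45.4, 32.7, 32.6 and 28.4 in zone I, 46.1, 49.0, 39.2 and 33.5 in zone II and 98.8, 95.5, 103 and 95.1 in zone III. Zone III stood clear of both. It rose by 1.24 ± 0.16 (SE, adjusted p = 3.5e-05) from zone II, and a second probe set gave 1.18. It too passed the minimum through zone III alone and had to be highest there, and the size of its rise is uncertain for the same reason. Beside these rises the osteoclast, osteoblast, endothelial and macrophage markers were higher in zone III than in zone II on every array in their sums. The early chondrocyte markers were lower, and the part of these cells in the results was not tested.

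Ddit3, which encodes the pro-apoptotic factor CHOP, varied too much between arrays to be placed. Ddit3 signals on arrays A to D were 58.1, 28.7, 90.9 and 43.9 in zone I, 54.3, 13.6, 95.8 and 35.5 in zone II and 75.7, 45.6, 55.8 and 85.9 in zone III. The 3 zones overlapped throughout. No comparison passed, with −0.35 ± 0.51 (SE, adjusted p = 0.632), 0.68 ± 0.51 (SE, adjusted p = 0.296) and 0.33 ± 0.51 (SE, adjusted p = 0.647). Without zone II array B, which had the lowest signal, the zone II difference was 0.17. Trib3, a pseudokinase induced by ATF4 and CHOP, likewise passed in none (−0.0007, 0.33 and 0.33, SE 0.32).

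**Figure D5:**
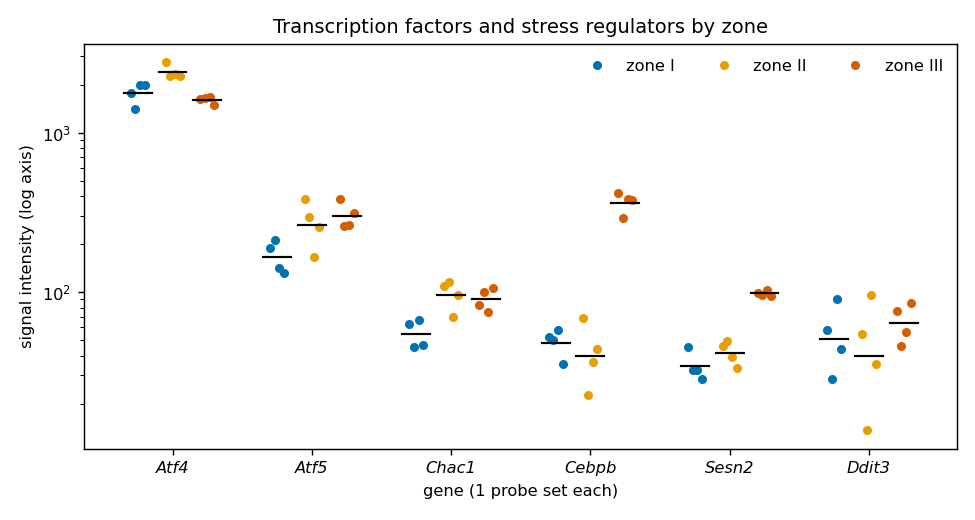
Signal intensity (log axis) of 6 transcription factors and stress regulators on each of the 12 arrays, 4 per zone, with a line at the mean log2 signal of each zone. Levels can be compared between zones within a gene and not between genes. The zone III arrays of Cebpb (291 to 416) and Sesn2 (95.1 to 103) stand apart from both other zones, Atf4 is highest in zone II, and Ddit3 is scattered in every zone.

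Probe sets other than the chosen one pointed the same way for the genes called. In zone II over zone I, 10 of the genes that rose had 11 other probe sets above the signal minimum, of which 11 had the same sign, 7 passed and 0 passed in the opposite direction. In zone III over zone II, 11 of the genes that fell had 19 others, of which 19 had the same sign and 15 passed.

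Among the scaffold proteins of the multisynthetase complex, Aimp1, Aimp2 and Eef1e1, 2 rose into zone II and 3 fell into zone III, beside 15.1% and 20.9% of all probe sets. Eef1e1 led at 0.82 ± 0.12 (SE, adjusted p = 0.00016) and −1.26 ± 0.12 (SE, adjusted p = 2.5e-06). Mitochondrial synthetases serve the translation of the mitochondrial genome. Of 14 tested, 1 rose and 2 fell into zone II, at a median of −0.08, where 15.1% and 22.2% of all probe sets did so. Into zone III 3 rose and 1 fell, at a median of 0.03, where the shares of all probe sets were 28.5% and 20.9%. Nars2 moved most, with mean signals of 158 ± 15.3, 203 ± 37.7 and 979.9 ± 171 (SD, n = 4) in zones I to III and a rise of 2.27 ± 0.16 (SE, adjusted p = 3.1e-07) into zone III. Pars2 was lower in zone II than in zone I, at −0.89 ± 0.18 (SE, adjusted p = 0.00214), and Wars2 was higher, at 0.38 ± 0.11 (SE, adjusted p = 0.0163).

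Among the 6 tested eIF2 kinases and phosphatase subunits, 0 rose and 0 fell from zone I to zone II (limma, and 0 and 1 at an unadjusted p under 0.05), against 15.1% and 22.2% over all probe sets. Into zone III, 3 rose and 1 fell, against 28.5% and 20.9%. Ppp1r15a, the stress-induced subunit that directs eIF2 dephosphorylation, rose by 1.02 ± 0.26 (SE, adjusted p = 0.00616), and Ppp1r15b, its constitutive counterpart, by 0.37 ± 0.14 (SE, adjusted p = 0.0423). Eif2ak2, the kinase PKR, rose by 0.61 ± 0.19 (SE, adjusted p = 0.0184). Its mean signals were 41.8, 37.4 and 55.3 in zones I to III. It reached the signal minimum in zone III alone, so it had to be highest there to be tested. Eif2ak3, the kinase PERK, differed by −0.47 ± 0.14 (SE, adjusted p = 0.0139).

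A second list of ATF4-responsive genes, 16 tested, gave 6 that rose from zone I to zone II, where 15.1% of all probe sets rose, then 3 higher and 5 lower in zone III than in zone II, where 28.5% and 20.9% were. Nupr1, a stress-induced chromatin protein, was the largest, with means of 109 ± 30.4, 426 ± 45.2 and 771 ± 115 (SD, n = 4) and differences of 2.00 ± 0.19 (SE, adjusted p = 6.7e-06) and 0.85 ± 0.19 (SE, adjusted p = 0.00233). Eif4ebp1, the inhibitor of cap-dependent initiation, rose by 1.2 ± 0.09 (SE, adjusted p = 1e-06) into zone II and remained 2.12-fold above zone I in zone III. Aldh1l2, a mitochondrial folate enzyme, rose by 0.62 ± 0.16 (SE, adjusted p = 0.00752). Into zone III, Jdp2 and Vldlr rose by 1.30 and 0.98, whereas Cth, which makes cysteine, Mthfd1l and Stc2 had differences of −1.27, −1.04 and −0.91.

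Genes of the other arms of the unfolded protein response, chaperones and the ATF6 and IRE1 branches, moved in both directions. Of 13 tested, 5 rose and 1 fell into zone II, at a median of 0.36, against 15.1% and 22.2% of all probe sets. There were 3 that rose and 7 that fell into zone III, at a median of −0.54, against 28.5% and 20.9%. Sdf2l1, Edem1 and the chaperone Hspa5 rose into zone II by 0.94, 0.53 and 0.38 on the log2 scale, and Creb3l2, a factor of the secretory pathway in chondrocytes, differed by −0.44. Into zone III, Creb3l2, Hsp90b1 and Xbp1 had differences of −1.198, −0.79 and −0.76, while Atf6 rose by 1.15 ± 0.15 (SE, adjusted p = 4.3e-05), Edem1 by 0.63 and Ern1 by 0.35.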

How the data were processed

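Each of 12 Affymetrix MOE 430 2.0 arrays measured total RNA of pooled tibia segments from 1 litter, 4 arrays in each of 3 zones. The deposited intensity values, 1 per probe set and array, are linear, and the authors scaled each array to a mean of 150 after trimming 2% at each end. The study's methods name GCRMA and RMA and the submitters' processing notes name RMA, and for the deposited values themselves the algorithm was not given in the sources used here. Array setting files, also deposited by the authors, hold text (unit: other) and were read only for hybridization times.

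The log2 of each signal was used, with no constant added. The 64 control probe sets were left out, and 22255 of 45101 probe sets passed a minimum, a zone mean of 50 in 1 zone or more. limma 3.58.1 in R 4.3.3 (lmFit and eBayes) fitted the 3 zones on all 12 arrays without a block, with Benjamini-Hochberg adjustment over all probe sets tested in each comparison, called at an adjusted p under 0.05. The number of arrays limits the precision. Probe sets were named through the platform annotation, with 1 symbol for 34945 of them. Those whose probes can match several transcripts were kept. Among them were those of Aars, Iars, Psat1, Qars, Wars, Farsb, Phgdh, Shmt2, Aldh18a1, Atf4 and Trib3, whose values are less certain for it.

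Genes and lists were chosen with earlier results of these data known. A gene was described array by array where it was called and its arrays did not overlap in at least 1 comparison, up to 8 per group by size, with Atf4, Ddit3, Asns, Slc7a5 and Slc3a2 always described. Genes of other lists were named up to 3 per list and direction. Alternatives changed the filter, scaling, log scale, arrays in the fit, variance model, block, probe set and call rule. Letters A to D were not taken to pair the arrays in the fit of 3 zones, since the labels do not tie a letter to a litter and the deviations of only 8 of 12 same-letter pairs correlated above 0.1 (range −0.13 to 0.26). Those of zones I and III did in 4 of 4, and the counts of that comparison were the same with the letter as a block. By the study's methods all 3 zones were cut from each litter. Arrays of different zones thus share litters and are not all independent, which the reported fit leaves out. Promoter windows came from RefSeq on GRCm38.p6.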

Additional observations from a re-analysis of the deposited data

Results flagged for a closer look

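Within zones, 114 groups of 4 arrays were checked for an array far from its neighbours, and 3 were found, fewer than the 1 in 20 that chance gives. Tars on zone III array D had a signal of 644, below the other zone III arrays at 789 to 803. Psat1 on zone II array A had 2434, below the others at 2607 to 2612. Atf4 on zone II array A had 2754, above the others at 2267 to 2334.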

How the results depend on the processing

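Of 1480 recomputed differences of single genes under the alternatives, 1340 kept direction and side of the threshold, 129 no longer passed, 2 newly passed and 9 changed sign. Centring on ribosomal protein genes, themselves higher in zone II, changed most counts. It gave 6 genes higher and 1 lower in zone II over zone I (18 and 0 in the reported fit), 11 higher and 2 lower in zone III over zone II (5 and 18), and 1 lower in zone III over zone I (3). It turned Slc3a2 in zone II over zone I to −0.012, Gars, Kars, Lars and Nars in zone III over zone II to 0.15, 0.026, 0.13 and 0.070, and Asns and Atf4 in zone III over zone I to 0.15 and 0.049. Quantile normalization left 3 higher and 11 lower in zone III over zone II. The count of 5 was 3 as well with no filter and with median centring. In zone II over zone I, quantile normalization lost the calls of Atf4, Eprs, Hars, Nars, Psat1 and Rars (limma, adjusted p between 0.0597 and 0.285). With no filter, those of Atf4, Atf5, Hars, Iars and Nars were lost there (limma, adjusted p between 0.0553 and 0.119). A rule of at least 1.5-fold left 9 higher in zone II over zone I, 3 higher and 8 lower in zone III over zone II, and 7 higher and 1 lower in zone III over zone I. Atf4 in zone III over zone I became 0.091 as the median of its probe sets, and Ddit3 in zone II over zone I ranged from −0.77 to 0.17 on leaving out single arrays, with 0.17 without zone II array B. Of the called probe sets of the 3 comparisons, 40.5%, 57.7% and 52.5% were higher as reported, 61.2%, 38.8% and 46.6% with median centring, 50.2%, 45.1% and 47.2% with quantile normalization and 11.7%, 90.1% and 72.1% with ribosomal centring. Apart from the effect of centring that its construction gives, the cause of these shifts was not tested. Leaving out single arrays gave 15 to 19 genes higher in zone II over zone I, 3 to 5 higher and 15 to 18 lower in zone III over zone II (3 without zone II array C or D or zone III array A or B), and 9 to 11 higher and 3 to 4 lower in zone III over zone I. With the letter as a replicate block the counts were 19 higher in zone II over zone I, 5 higher and 19 lower in zone III over zone II, and 11 higher and 3 lower in zone III over zone I. Signals near the minimum of 50, as of Sesn2, Slc7a3, Ddit3 and Cebpb outside zone III, were the least certain.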
